A study of Mus musculus with 2 samples.

Results

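The sodium/calcium exchangers of the plasma membrane were examined in cortical RNA of mice lacking transmembrane prolyl 4-hydroxylase (P4H-TM), an enzyme of the endoplasmic reticulum membrane that acts on hypoxia-inducible factor (HIF). The genes were taken by name: the NCX genes Slc8a1, Slc8a2 and Slc8a3, and the potassium-dependent NCKX genes Slc24a2, Slc24a3, Slc24a4 and Slc24a5. Of these 7 genes, 6 were represented by a probe set that carries exactly 1 gene symbol, with 8 probe sets for the 3 NCX genes and 4 for 3 NCKX genes, among 18193 genes and 45101 probe sets on the array. Slc24a5 had no such probe set and was not analysed here. Naive male C57BL/6J mice aged 2.5 months were used, either WT or P4H-TM KO, the KO mice being littermates of the WT. Cortical RNA of 4 mice was pooled per genotype and hybridized to 1 Affymetrix Mouse Genome 430 2.0 array, so that 2 arrays hold the whole comparison. A genotype is thus a single array, which gives no error between animals and allows no test, and each difference below describes this pair of pools.

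NCX proteins carry calcium out of the cell in exchange for sodium that enters down its gradient, and they can run in reverse when sodium accumulates in the cytosol or the membrane is depolarized. NCKX proteins move potassium together with calcium and so depend less on the sodium gradient alone. Both families clear calcium from neurons and glia after activity, alongside the ATP-driven calcium pumps. In the NCX family, Slc8a1 (NCX1) is widely expressed and is the main form of the heart, whereas Slc8a2 (NCX2) is mainly a brain form and Slc8a3 (NCX3) is found in brain and skeletal muscle. Among NCKX proteins, Slc24a2 (NCKX2) is a neuronal form, Slc24a3 (NCKX3) is expressed in brain and smooth muscle, Slc24a4 (NCKX4) serves olfactory neurons and enamel formation, and Slc24a5 (NCKX5) is an intracellular exchanger of pigment cells.

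The signal of P4htm, the targeted gene, went from 11.05 (WT) to 9.10 (P4H-TM KO) in log2 units on the brighter of its probe sets and from 9.71 to 8.07 on the other, and the position of these probe sets in the disrupted gene was not looked up. All 11 measured neuron markers, such as Slc17a7 of glutamatergic neurons, had signals above the median of all probe sets. The signal of an array is reported here as a log2 value, so that a difference of 0.585 between the arrays is 1.5-fold, and the median of all probe sets, 6.385, serves as the filter on low signal. In bulk tissue, fewer cells of a type and less RNA per cell cannot be told apart.

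The 250 bases upstream of the annotated start of each NCX gene are printed. The NCX genes were picked for this after their lower values were seen, and HIF, a substrate of this enzyme family, recognizes a short DNA core. A link between this core and the lower values was not tested. The sequences were read from the RefSeq promoter table of mouse build GRCm38.p6, in which all 7 genes had a window, 5′ to 3′ on the strand of the gene. The windows lie at chr17:81738388-81738637 on the minus strand for Slc8a1, chr7:16129576-16129825 on the plus strand for Slc8a2, and chr12:81333181-81333430 on the minus strand for Slc8a3. Capitals mark ACGTG or GCGTG, the core motif of HIF response elements, read on either strand.
Slc8a1: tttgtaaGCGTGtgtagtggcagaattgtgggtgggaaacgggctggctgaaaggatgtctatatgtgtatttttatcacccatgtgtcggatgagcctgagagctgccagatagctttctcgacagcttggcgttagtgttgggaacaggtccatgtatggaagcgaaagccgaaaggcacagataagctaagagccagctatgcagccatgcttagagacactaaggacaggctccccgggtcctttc
Slc8a2: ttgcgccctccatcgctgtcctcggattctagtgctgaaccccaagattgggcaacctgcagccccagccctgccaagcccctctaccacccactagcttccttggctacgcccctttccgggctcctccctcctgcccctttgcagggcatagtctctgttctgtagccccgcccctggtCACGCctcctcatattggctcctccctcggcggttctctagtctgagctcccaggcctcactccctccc
Slc8a3: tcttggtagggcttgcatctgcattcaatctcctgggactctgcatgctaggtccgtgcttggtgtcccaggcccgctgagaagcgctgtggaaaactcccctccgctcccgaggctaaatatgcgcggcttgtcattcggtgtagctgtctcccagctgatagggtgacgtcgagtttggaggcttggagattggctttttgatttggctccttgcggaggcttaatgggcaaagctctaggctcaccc

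The window of Slc8a1 held GCGTG starting 243 bases before the start, that of Slc8a2 held its reverse complement CACGC starting 69 bases before it, and that of Slc8a3 held neither core. Over all exchanger genes, 5 of 9 windows held a core, counting alternative starts of Slc24a2 and Slc24a3 separately. In Slc24a4 the cores on opposite strands overlap and form a single palindrome. Of all 32851 upstream windows of this length, 38.6% held at least 1 core, so a core is a common feature of promoters and is given here as a description only. The GC content was 50.4% for Slc8a1, 63.2% for Slc8a2 and 56.0% for Slc8a3, against a median of 52.4% over all windows. None of the exchanger genes lies on chromosome 9, which carries P4htm.

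By brightest probe set, Slc8a2 had the lowest value in P4H-TM KO relative to WT among the exchangers. On its brighter probe set (1438262_at) the log2 signal was 7.77 in WT and 7.50 in P4H-TM KO, a difference of -0.27, or 0.829 times the WT signal. On its dimmer probe set (1428054_at), which lies just under the filter on both arrays, the signal was 6.19 in WT and 6.05 in P4H-TM KO, a difference of -0.14. Both probe sets of this brain form of NCX were thus lower in the P4H-TM KO pool, and neither reached 1.5-fold. Among 4342 probe sets with a mean signal within 0.5 of the brighter one, 2.37% had a difference as low or lower, and their median difference was 0.01. This is the lowest such share among the 12 exchanger probe sets, so it belongs to a probe set picked as the extreme. For the dimmer probe set the corresponding share was 23.5%, so this difference was common at its signal level.

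Slc8a1, the widely expressed form, was measured by 4 probe sets. The brightest (1437675_at) gave 10.78 in WT and 10.73 in P4H-TM KO, a difference of -0.05, or 0.966 times the WT signal. The second (1440201_at) gave 9.57 in WT and 9.45 in P4H-TM KO, a difference of -0.12. All values were lower in P4H-TM KO, but by different amounts. The third (1420210_at), with 4.73 and 4.46, and the fourth (1425817_a_at), with 4.08 and 3.89, differed by -0.27 and -0.19 at signals below the filter. Of probe sets with similar signal, 25.7% were as low or lower than the brightest probe set of Slc8a1 and 10.3% as low or lower than the second. For the dim pair these shares were 11.2% and 19.8%. The ending _a_at of the fourth marks a probe set that matches several transcripts of a gene. With all 4 probe sets averaged the difference of Slc8a1 was -0.16 in place of the -0.05 of its brightest probe set.

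Slc8a3, the form of brain and skeletal muscle, had a log2 signal of 9.0 in WT and of 8.89 in P4H-TM KO on the brighter probe set (1440962_at), a difference of -0.11, or 0.927 times the WT signal. Its dimmer probe set (1450311_at) had 4.44 and 4.24, a difference of -0.20 below the filter. Again the values of both were lower in P4H-TM KO. Among probe sets of similar signal, 12.1% were as low or lower than the brighter one and 19.8% than the dimmer one.

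The NCKX genes had smaller differences. Slc24a2, the neuronal form, gave 12.03 in WT against 12.01 in P4H-TM KO on the brighter probe set (1429225_at) and 7.53 and 7.55 on the other (1453885_at), differences of -0.02 and 0.02 with opposite signs. Slc24a3 had 11.89 and 11.87 on its single probe set (1424308_at), a difference of -0.02. These differences are close to the rounding step of the deposited values, 0.01, and 41.8% and 41.5% of probe sets with signals like the bright ones were as low or lower. Slc24a4 had 7.72 and 7.66 on its single probe set (1435206_at), a difference of -0.06, with 28.8% of probe sets at similar signal as low or lower. The brighter Slc8a2 probe set was read in the same range of signal, and differed by -0.27 where Slc24a4 differed by -0.06.

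**Figure D1:**
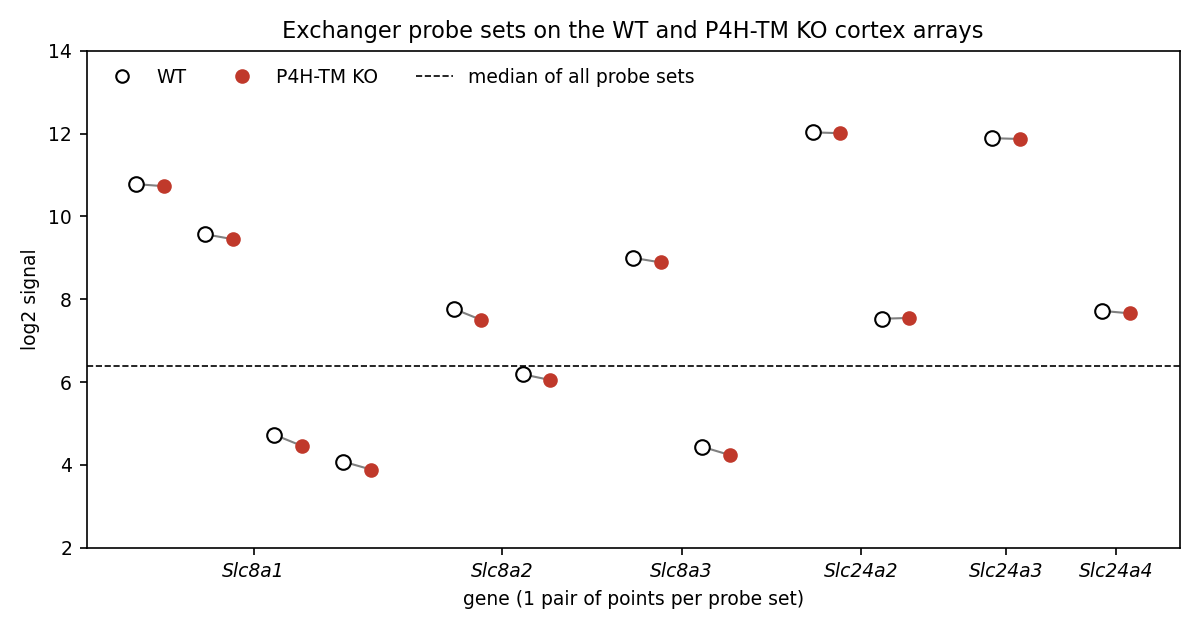
Log2 signal (vertical axis) of each probe set of the exchanger genes named on the horizontal axis, with open circles for the WT array and red points for the P4H-TM KO array. A line connects the pair of values of each probe set, and the dashed line is the median of all probe sets, 6.385. There is 1 array per genotype and so no error bar. The red point lies below the open circle in all 8 Slc8a pairs, while the Slc24a pairs differ by -0.06 to 0.02. The widest Slc8a difference, -0.27, occurs in the brighter Slc8a2 pair and in an Slc8a1 pair below the dashed line. The brightest Slc8a1 pair differs by -0.05.

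No exchanger gene reached 1.5-fold in either direction on its brightest probe set, where 0.759% of all 18193 genes did. At a smaller limit of 0.2 on the log2 scale, 1 of 6 exchanger genes, Slc8a2, was past it, and it was lower in P4H-TM KO. Of all genes, 17.2% were past this limit in either direction and 9.61% were past it with lower values, so a single gene of 6 is near the background. On their brightest probe sets, all 6 exchanger genes had lower values in P4H-TM KO at any size, against 49.0% of all genes; with probe sets averaged this was 5 of 6, as Slc24a2 then had equal values. Their median difference was -0.055, with -0.11 for the NCX genes and -0.02 for the NCKX genes, and the median over all genes was 0.00. Among genes with signals at or above the filter, to which all 6 exchanger genes belong, the median was 0.01. Of these genes, 1.83% were as low as Slc8a2, the lowest of the exchangers, or lower.

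Counted by probe set, 8 of 8 NCX probe sets and 3 of 4 NCKX probe sets were lower in P4H-TM KO, against 48.2% of all probe sets with 1 symbol. The NCX differences ran from -0.27 to -0.05 with a median of -0.165, and the NCKX differences from -0.06 to 0.02 with a median of -0.02, so that the ranges touch only at the brightest Slc8a1 probe set and that of Slc24a4. Probe sets of 1 gene share its RNA and the same pair of pools, and all probe sets share these 2 arrays, so they are not replicates of the comparison. Of the NCX probe sets, 4 of 8 lay below the filter, where the median difference of all probe sets was -0.03. Above the filter, the 4 NCX probe sets had a median of -0.115 and all probe sets one of 0.01. With the trend of the differences along signal removed, all 8 NCX probe sets still had lower values, with differences from -0.28 to -0.05. Between probe sets of 1 gene above the filter, differences scattered with an SD of 0.10 (pooled over 5101 genes), a spread within these arrays that holds no variation of animals. The brightest probe sets of Slc8a2 and Slc8a3 differed by more than this SD, Slc8a3 only barely at -0.11, and those of the other exchangers by less. The SD measures scatter around the difference of each gene itself, so passing it does not set a gene apart from others on these arrays.

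**Figure D2:**
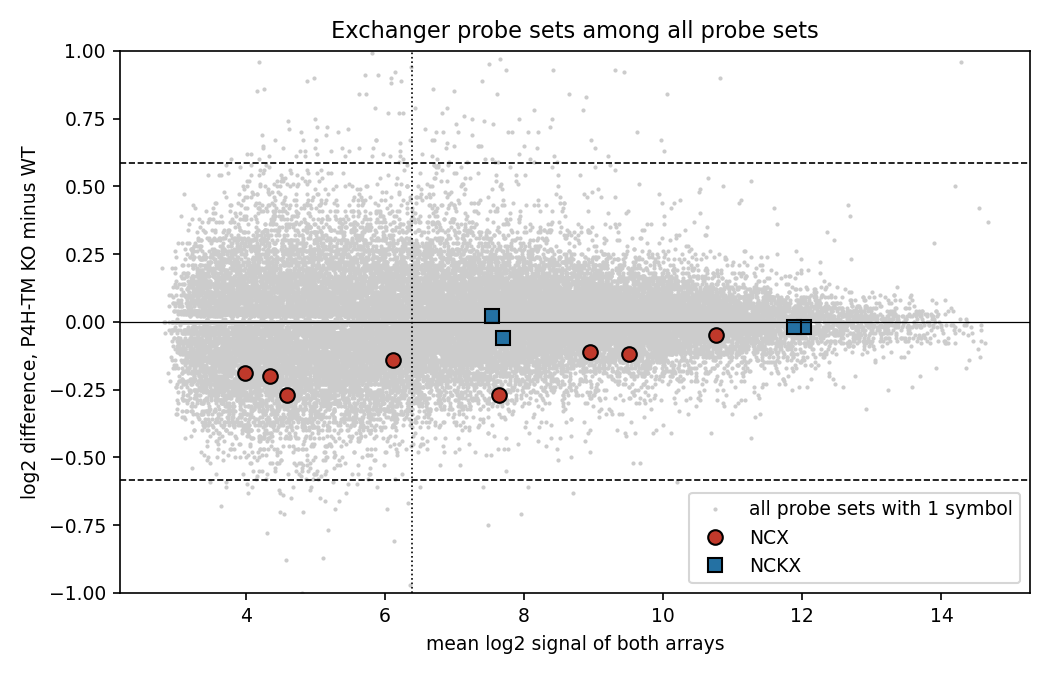
Difference between the arrays (vertical axis, P4H-TM KO minus WT, log2) against the mean log2 signal of both arrays (horizontal axis), for the NCX (red circles) and NCKX (blue squares) probe sets and for all probe sets with 1 symbol (grey). Dashed lines mark 1.5-fold and the dotted line the signal filter; 50 probe sets beyond a difference of 1 are not drawn. The NCX points lie between -0.27 and -0.05, inside the grey cloud. Of probe sets with signals like that of the brighter Slc8a2 probe set, 2.37% lie as low or lower.

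The other exchangers and the pumps that act beside these genes did not share a common direction. Slc8b1, the sodium/calcium exchanger of mitochondria, gave 7.49 in WT and 7.69 in P4H-TM KO, a difference of 0.20. Slc24a1, the exchanger of rod photoreceptors, had 3.56 and 3.37, a difference of -0.19 far below the filter, and it lies on chromosome 9 like P4htm. Each of these relatives has 1 probe set, and their signs are opposite. Of 6 genes for the plasma membrane calcium pumps and their partner subunits, 3 were higher in P4H-TM KO, 2 were lower and 1 was equal, none by 1.5-fold, and the median was 0.04. Bsg, which encodes the pump partner basigin, had the highest difference, 0.22, and the pump gene Atp2b2 the lowest, -0.12, with 0.06 on another of its probe sets. Of 12 listed genes of the sodium pump, which builds the gradient that drives the exchangers, and its FXYD regulators, 9 were measured. Of these, 7 were higher in P4H-TM KO and 2 were lower, none by 1.5-fold, and the median was 0.06. Fxyd1, which encodes phospholemman, a regulator of the sodium pump and of NCX1, gave 9.70 in WT and 10.17 in P4H-TM KO, a difference of 0.47. The lowest was Atp1b1, a beta subunit of the pump, at -0.03 on the brightest of its 5 probe sets and 0.02 on the highest.

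The arrays also differed in markers of cell types. All 11 measured oligodendrocyte markers were lower in P4H-TM KO, as the NCX genes were, with a median of -0.27, none at 1.5-fold and all above the filter. Their summed signal on the linear scale was 81008 in WT and 71589 in P4H-TM KO, and they ranged from -0.34 for Cldn11, a tight junction protein of myelin, and for Opalin, to -0.08 for Mbp, myelin basic protein, whose 8 probe sets ran from -0.19 to 0.25. Of 12 astrocyte markers 8 were lower, with a median of -0.045 and a range of -0.23 to 0.05. The neuron markers had a median of -0.01 with 6 of 11 lower, and the 6 interneuron markers one of -0.015 with 3 lower. Markers in the opposite direction were those of the choroid plexus, with 11 of 11 measured higher and a median of 1.63. Their summed signal was 24990.5 in WT against 36189.6 in P4H-TM KO. The brightest marker makes up most of this sum and had the smallest difference of the list, 0.37. Likewise, 8 of 9 meninges markers (median 0.38), 6 of 6 mural cell markers (median 0.235) and 3 of 5 measured endothelial markers (median 0.11) were higher. The part of these cell types in the exchanger and Fxyd1 differences was not tested. Of 6 melanocyte markers, listed because Slc24a5 belongs to pigment cells, 3 were lower and 2 higher (median -0.045), and the mean signal of each was below the filter. Dct, which encodes an enzyme of melanin synthesis, was past 1.5-fold, with 5.65 in WT and 6.53 in P4H-TM KO, the latter above the filter.

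**Figure D3:**
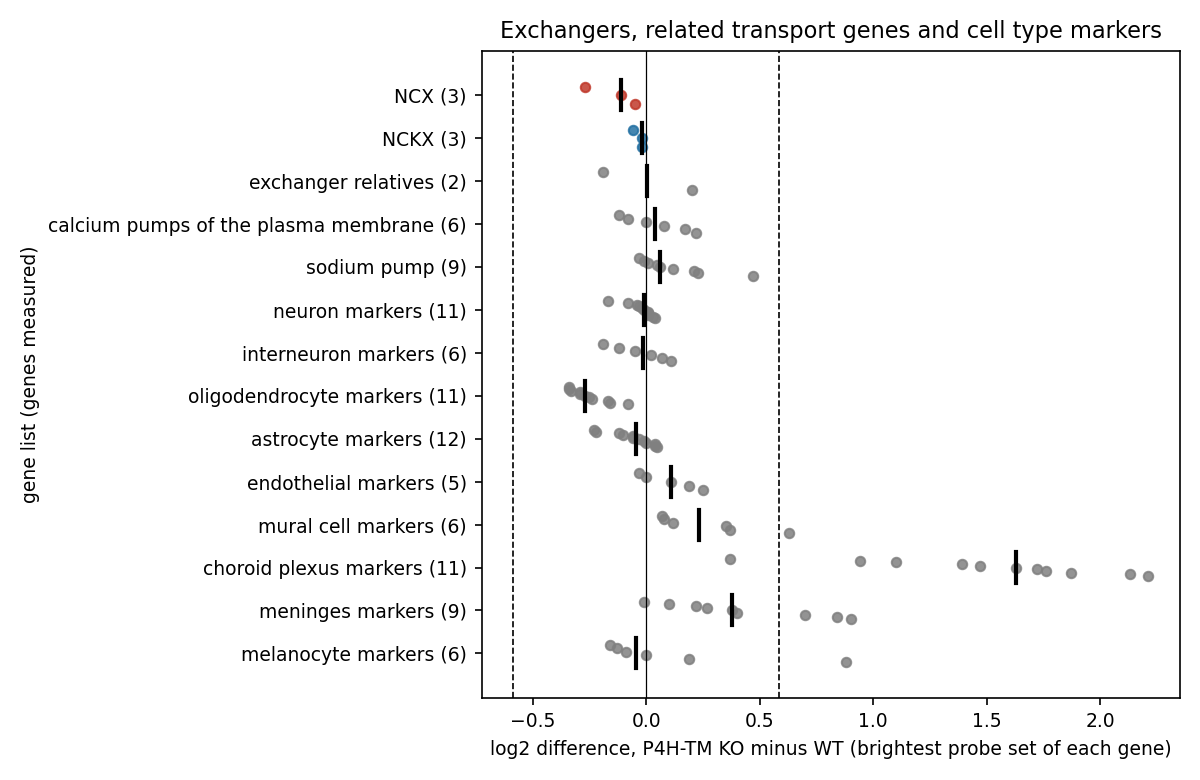
Log2 difference between P4H-TM KO and WT (horizontal axis), with 1 point per measured gene on its brightest probe set, for the NCX genes, the NCKX genes, related transport genes and cell type markers (vertical axis, number of genes in brackets). Black bars are medians and dashed lines mark 1.5-fold; there are no error bars with 1 array per genotype. The NCX median lies at -0.11, the NCKX median at -0.02, the oligodendrocyte median at -0.27 and the choroid plexus median at 1.63.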

How the data were processed

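Cortical RNA of 4 pooled mice per genotype was hybridized to 1 array each. The authors used the GeneChip Operating System to quantify the scans and GenePattern to normalize them, and the submitters' processing notes list RMA without a version. They deposited normalized log2 signals with 2 decimals, from 2.69 to 14.91, with medians of 6.38 (WT) and 6.39 (P4H-TM KO). RMA gives the arrays a like distribution of signals, so a shift common to most genes would not be seen, and labelling from oligo-dT favours 3′ ends of transcripts. The number of arrays limits the precision.

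Probe sets were named from the platform annotation where it gives 1 symbol (34958 probe sets, of which 34754 matched RefSeq by gene ID; 932 have several symbols and 9211 none); 64 control probe sets were left out of genes. A gene took the values of its brightest probe set, by the mean over WT and P4H-TM KO. Genes named outside the exchangers are P4htm, both exchanger relatives, the highest and lowest gene of each pathway list and those of marker lists that move with an exchanger. Slc17a7, as a check of the tissue, and Dct were named after their values were seen, and no gene was sought for a similar pattern because 2 arrays give 1 difference per gene. Of 101 genes on 12 lists, written from general knowledge, 94 were measured. The exchangers and the lists were chosen with earlier results of these data known. Alternatives comprised the mean or median over probe sets, removal of probe sets ending in _s_at, _x_at or _a_at, median-centred arrays, loess at a span of 0.3, the filter and other folds. The steps were tested on simulated data whose changes were larger than any exchanger difference, so differences of the size reported here were not covered. The software was Python 3.11.15 with statsmodels 0.14.6, pandas 2.3.3, numpy 2.4.6 and matplotlib 3.10.9.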

Additional observations from a re-analysis of the deposited data

How the results depend on the processing

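No paired analysis was possible because each genotype has 1 array, so the genotypes share a single replicate number, and no replicate could be left out. No exchanger reached 1.5-fold under any alternative and none reached 1.3-fold or 2-fold on its brightest probe set, and 1 exchanger, Slc8a2, was past 0.2 on the log2 scale under each alternative tried. Its difference ran from -0.28 to -0.205 and that of Slc8a3 from -0.155 to -0.11, while those of Slc24a2, Slc24a3 and Slc24a4 lay between -0.07 and 0.00. Slc8a1 depended on how its probe sets were combined, with -0.05 on the brightest, -0.1575 as their mean and -0.155 as their median, its dimmer probe sets having the larger differences. The median of the exchangers ran from -0.115, with each probe set counted once, to -0.055, that of the NCX genes from -0.16 to -0.11 and that of the NCKX genes from -0.03 to -0.02. The 6 exchanger genes with lower values numbered 5 with the mean or the median over probe sets and 6 under the other 3 settings; all 5 were added after the values were seen. The 8 lower NCX probe sets, a count chosen after the values were seen, numbered 8 with centred arrays or with the loess trend removed, 7 of 7 without the probe set that matches several transcripts and 4 of 4 above the filter, where fewer probe sets are counted. Values were treated as stable when they moved by less than the pooled SD between probe sets of 1 gene, which held for 34 of 36 alternatives to single genes. This limit, 0.10, is larger than the brightest-probe-set differences of all exchangers but Slc8a2 and Slc8a3. A value of the others could change sign and still be called stable, so the count says little about them. Genes with 1 probe set also could not move with the mean or median over probe sets.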
